A study of Mus musculus with 13 samples.

Results

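The chemokine transcripts that natural killer (NK) cells make were examined as 7 genes, Ccl3, Ccl4, Ccl5, Xcl1, Ccl1, Ccl9 and Cxcl10. They were taken by name, through their Ensembl identifiers in GENCODE M21, as 7 of the 54532 gene rows that each file holds. The data were RNA-seq gene counts of NK cells sorted from C57BL/6J mice aged 8 to 10 weeks, in a series whose title concerns the maturation of liver-resident NK cells by CD8+ T cells. Liver-resident NK cells (LrNK) were labelled as liver lymphocytes and conventional NK cells (cNK) as splenocytes, so that cell type and organ cannot be told apart. Each came from mice with a wild type (WT) genotype or a genotype given as CD8KO, a loss of CD8 whose allele the labels do not describe. There were 4 libraries of LrNK WT and 3 each of LrNK CD8KO, cNK WT and cNK CD8KO.

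Libraries 2 and 4 of LrNK WT, and libraries 2 and 3 of LrNK CD8KO, agreed far more closely than any other pair of LrNK libraries (chi-square per degree of freedom 3.04 and 2.67, against 196 to 283). Each pair was summed and counted once, which left n = 3, 2, 3 and 3 samples. Library totals ran from 30.6 to 72.7 in units of 1e6 counts. LrNK WT libraries 1 and 3 and LrNK CD8KO library 1 held 13917 to 15797 detected genes, while all others held 19896 to 22921. Liver-resident markers summed to 1326 to 2382 counts per 1e6 counts of a library (CPM) in LrNK libraries and 222 to 286 in cNK libraries, and conventional markers to 186 to 652 and 4098 to 4364, in the direction of the labels. Cd8a, the gene for CD8 alpha, kept its counts where the label reads CD8KO: it stood at 41.6 to 45.1 CPM in LrNK labelled CD8KO against 18.5 to 22.4 in LrNK WT, and at 85.9 to 109 against 0.561 to 0.578 in cNK. The part of Cd8a that was read is not known, so every comparison by genotype below is a comparison of labels. Nothing in the labels says that samples of a group came from separate animals, so p-values measure the spread between these samples.

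Chemokines are small secreted proteins that guide leukocytes along gradients by binding receptors with a heptahelical fold. They are classed by the cysteines near the mature amino terminus: adjacent in CC chemokines, separated by a single residue in CXC chemokines, and with the first and the third cysteine missing in the C chemokine Xcl1. NK cells store or rapidly make Ccl3, Ccl4, Ccl5 and Xcl1, which draw in macrophages, T cells and cross-presenting dendritic cells. Ccl1 recruits cells that carry Ccr8, Ccl9 is a ligand of Ccr1 made mostly by myeloid cells, and Cxcl10 is an interferon-induced ligand of Cxcr3.

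The windows below show what the 7 genes share and where they differ. Each is a stretch of 60 coding bases from the GENCODE M21 transcript with the codons of the first conserved cysteines in capitals, adjacent in the 5 CC genes, split by 1 codon in Cxcl10, and single in Xcl1.
Ccl3: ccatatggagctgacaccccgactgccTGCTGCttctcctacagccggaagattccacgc
Ccl4: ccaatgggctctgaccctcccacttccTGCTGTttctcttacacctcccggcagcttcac
Ccl5: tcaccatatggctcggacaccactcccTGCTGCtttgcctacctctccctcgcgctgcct
Xcl1: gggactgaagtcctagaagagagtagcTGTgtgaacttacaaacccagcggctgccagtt
Ccl1: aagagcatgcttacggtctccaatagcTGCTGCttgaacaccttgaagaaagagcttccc
Ccl9: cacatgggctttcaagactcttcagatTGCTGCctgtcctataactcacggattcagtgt
Cxcl10: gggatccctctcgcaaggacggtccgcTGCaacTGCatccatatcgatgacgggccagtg

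The pair with the most alike coding sequence, Ccl3 and Ccl4, was identical at 69.6% of 270 aligned bases. Ccl3, Ccl4, Ccl5 and Ccl1 shared no stretch of 50 bases with another gene's transcripts, so reads of that length belong to 1 gene each. Of the 50-base stretches of Xcl1, 10.8% were also found in Gm20743, a predicted gene, and of those of Cxcl10, 3.59% lay in Art3, which overlaps it on the other strand. Art3 did not exceed 0.934 CPM in any library, whereas Gm20743 reached 385 CPM, and how shared reads were counted is not given in the sources used here, which makes the level of Xcl1 uncertain. Ccl9 shared 1.97% of its stretches with other genes.

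On GRCm38, 5 of the genes lie close together on chromosome 11. Ccl5 spans 83525778 to 83530518, Ccl9 spans 83572919 to 83578636, Ccl3 spans 83647844 to 83649355 and Ccl4 spans 83662584 to 83664683. Ccl1 lies further off, at 82176657 to 82305690, a span set by 1 long processed transcript that also raises its exon length to 2369 bases. Xcl1 is on chromosome 1 at 164931644 to 164935527, and Cxcl10 on chromosome 5 at 92346638 to 92348889. All are on the minus strand except Ccl4.

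How were the 7 levels ordered within each population? Set per kilobase of exon, Ccl5 was the most abundant transcript in every library of cNK and of LrNK WT. In cNK WT its mean was 2617 ± 207 CPM per kb (SD, n = 3), followed by Ccl3 at 367 ± 39.8, Ccl4 at 207 ± 18.2 and Xcl1 at 195 ± 10.6, the last pair within their spread. Cxcl10 stood at 3.27 ± 2.27, Ccl9 at 0.935 ± 0.0999 and Ccl1 at 0.0356 ± 0.0114 CPM per kb. In LrNK WT the 4 abundant genes drew together: Ccl5 at 2423 ± 630 CPM per kb (SD, n = 3), Xcl1 at 1728 ± 933, Ccl4 at 1532 ± 1186 and Ccl3 at 864 ± 511, neighbours whose spreads overlapped. Ccl9 at 21.4 ± 19.0 and Cxcl10 at 21.0 ± 9.42 CPM per kb could not be ordered, and Ccl1 was lowest at 2.89 ± 0.711. The order of means was the same in LrNK CD8KO, from Ccl5 at 1333 ± 491 CPM per kb (SD, n = 2) and Xcl1 at 1189 ± 777 to Ccl1 at 1.45 ± 1.52. Its first place rested on library 1, with Ccl5 at 985 and Xcl1 at 640 CPM per kb. In libraries 2 and 3 Xcl1, at 1712 and 1770 CPM per kb, was above Ccl5, at 1659 and 1704. In cNK CD8KO, Ccl5 at 2666 ± 62.9 CPM per kb (SD, n = 3) was followed by Ccl3 at 175 ± 14.96 and Xcl1 at 158 ± 10.6, which lay within their spread, and then by Ccl4 at 119 ± 4.82.

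Ccl5 therefore made up most of the chemokine message in cNK and less of it in LrNK. Its share of the summed CPM of the 7 genes was 82.2% to 82.8% in cNK WT, 88.9% to 90.2% in cNK CD8KO and 35.1% to 59.9% over all LrNK libraries. The 7 genes together took 0.278% to 0.332% of all counts in cNK libraries. In LrNK WT libraries 1 to 4 they took 0.297%, 0.733%, 0.469% and 0.75%, and in LrNK CD8KO libraries 1 to 3 they took 0.216%, 0.454% and 0.462%.

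**Figure D1:**
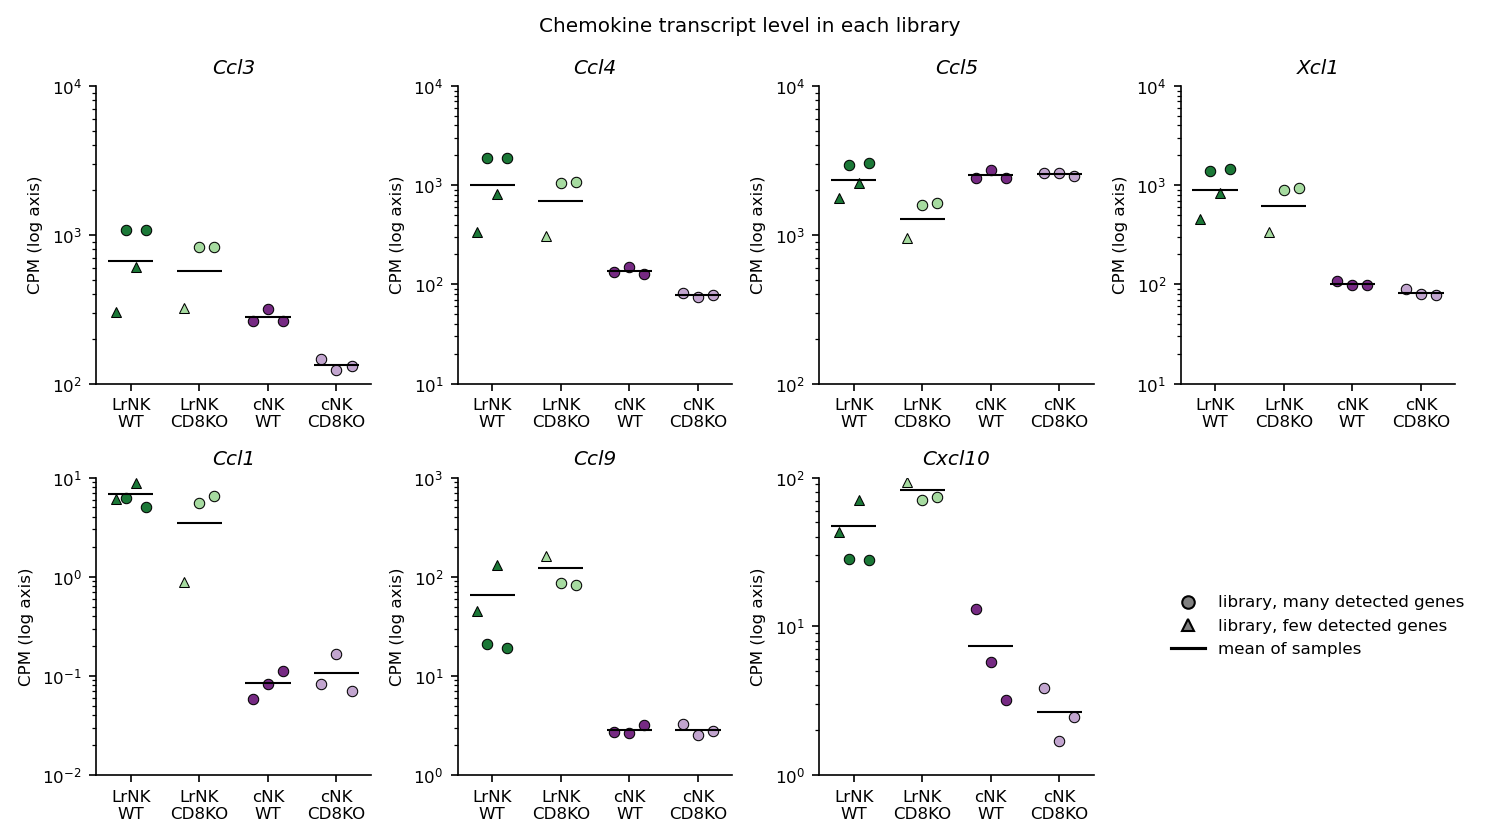
Level of each chemokine transcript in CPM (log axis) in every library of the 4 groups. Circles are libraries with many detected genes, triangles those with few, and lines the mean of samples. Ccl5 lies between 946 and 3014 CPM throughout, whereas Ccl4, Xcl1, Ccl9, Ccl1 and Cxcl10 are higher in every LrNK library than in any cNK library.

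Which chemokines differed between liver-resident and conventional NK cells of WT mice? Of the 7, 5 were higher in LrNK WT than in cNK WT by edgeR's quasi-likelihood test (Benjamini-Hochberg adjusted p under 0.05 over all genes), and none was lower. Of the 16456 genes tested, 10.9% were called higher and 9.83% lower. The median log2 difference of the 7 was 3.01, against -0.08 over all genes tested. In sorted bulk samples, fewer cells of a type and less RNA per cell cannot be told apart. Where groups are said not to overlap, here and below, the share of all genes that separate in this way was not counted.

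Xcl1, the ligand of Xcr1 on cross-presenting dendritic cells, measured 453, 1392, 836 and 1464 CPM in LrNK WT libraries 1 to 4 and 108, 99.4 and 98.0 CPM in cNK WT libraries 1 to 3. Every LrNK library was above every cNK library, and the libraries with few detected genes were the lower ones of their group. The log2 difference was 3.26 ± 0.44 (SE; edgeR adjusted p = 0.00452). Gm20743, which shares sequence with Xcl1, stood at 53.6 to 385 CPM in LrNK WT and 44.1 to 51.9 in cNK WT.

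Ccl4, also known as MIP-1 beta, which attracts monocytes and T cells, measured 341, 1858, 821 and 1889 CPM in LrNK WT and 133, 150 and 127 CPM in cNK WT. The groups did not overlap, although LrNK WT libraries differed among themselves several times over. The log2 difference was 3.01 ± 0.62 (SE; edgeR adjusted p = 0.0196), and the call was lost without any 1 of the 3 cNK WT samples (edgeR adjusted p = 0.0918 to 0.105). Ccl3, or MIP-1 alpha, which binds Ccr1, measured 301, 1076, 605 and 1081 CPM in LrNK WT against 262, 316 and 265 in cNK WT. LrNK WT library 1 fell among the cNK WT values, and the log2 difference of 1.35 ± 0.46 (SE) did not pass (edgeR adjusted p = 0.0873). It passed without LrNK WT library 1 (1.68 ± 0.29, edgeR adjusted p = 0.0171), and in all samples by DESeq2 (adjusted p = 0.00521) and by voom (adjusted p = 0.0186).

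Ccl5, or RANTES, which NK and T cells hold in a ready store, measured 1780, 2948, 2223 and 3014 CPM in LrNK WT and 2399, 2741 and 2397 in cNK WT. The ranges overlapped, and the log2 difference was -0.02 ± 0.23 (SE; edgeR adjusted p = 0.975). LrNK samples lay on both sides of cNK: against cNK WT, the sample of LrNK WT with many detected genes alone gave a log2 difference of 0.35 (edgeR adjusted p = 0.00489, a lone sample assumed to vary like cNK) and the 2 with few gave -0.29.

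The remaining genes were scarce or absent in cNK. Ccl1 measured 6.02, 6.19, 8.79 and 5.10 CPM in LrNK WT and 0.0583, 0.0825 and 0.112 in cNK WT, where it rested on 16 counts over the 3 libraries against 1021 in LrNK WT. The log2 difference was 6.39 ± 0.63 (SE; edgeR adjusted p = 0.00147). Ccl9, also called MIP-1 gamma, measured 45.0, 20.9, 130 and 18.9 CPM in LrNK WT against 2.72, 2.63 and 3.20 in cNK WT. Its log2 difference was 4.57 ± 0.69 (SE; edgeR adjusted p = 0.00669). Cxcl10 measured 43.3, 28.5, 70.2 and 28.0 CPM in LrNK WT and 13.1, 5.79 and 3.21 in cNK WT. Its log2 difference was 2.74 ± 0.58 (SE; edgeR adjusted p = 0.0208), a call lost without cNK WT sample 2 (edgeR adjusted p = 0.103) or sample 3 (edgeR adjusted p = 0.0666). For these 3 genes each LrNK library was above each cNK library.

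In samples labelled CD8KO, 6 of the 7 were called higher in LrNK than in cNK and none lower, where 15.4% of the 17795 genes tested were called higher and 11.6% lower. The median log2 difference was 3.28, against -0.05 over all genes tested. LrNK CD8KO libraries 1 to 3 gave 320, 833 and 823 CPM of Ccl3 against 146, 124 and 132 in cNK CD8KO. For Ccl4 they gave 308, 1055 and 1071 CPM against 81.6, 75.2 and 78.0. For Xcl1 they gave 335, 895 and 926 CPM against 88.9, 80.4 and 78.5. For all 3 genes the lowest LrNK library, library 1, was still above the cNK libraries.

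The log2 differences in the samples labelled CD8KO were 2.25 ± 0.41 (SE) for Ccl3, 3.28 ± 0.52 for Ccl4 and 3.06 ± 0.43 for Xcl1, with edgeR adjusted p of 0.0141, 0.00915 and 0.00636. Ccl1 measured 0.891, 5.56 and 6.49 CPM against 0.0823, 0.168 and 0.0699, and differed by 5.14 ± 1.02 (SE; edgeR adjusted p = 0.0182). LrNK CD8KO library 1 held 32 counts of Ccl1 and its partners more, so this gene varied most within the group. Ccl9 measured 162, 85.4 and 82.0 CPM against 3.27, 2.51 and 2.81, and differed by 5.53 ± 0.30 (SE; edgeR adjusted p = 4.34e-04). Cxcl10 measured 92.9, 71.0 and 73.6 CPM against 3.83, 1.69 and 2.46, and differed by 5.08 ± 0.36 (SE; edgeR adjusted p = 8.51e-04). Ccl5 was the exception in direction, at 946, 1592 and 1636 CPM in LrNK against 2585, 2602 and 2490 in cNK. All LrNK values of Ccl5 were below all cNK values, but the log2 difference of -0.86 ± 0.26 (SE) did not pass (edgeR adjusted p = 0.0622). It passed by DESeq2 and voom (adjusted p = 0.00716 and 0.00375) and without either LrNK CD8KO sample, at -0.50 without sample 1 and -1.39 without sample 2, where the lone sample was assumed to vary like cNK. The calls of Ccl3, Ccl4 and Ccl1 were lost without any 1 of the 3 cNK CD8KO samples (edgeR adjusted p = 0.0576 to 0.0965), which left Xcl1, Ccl9 and Cxcl10. With LrNK samples of few or of many detected genes alone, the 6 genes other than Ccl5 stayed higher in LrNK under both labels. Ccl5 stayed lower in the samples labelled CD8KO, and in WT it was higher with many alone and lower with few alone. Most of these subsets held a lone LrNK sample, so no calls are given. The size of the difference depended on LrNK CD8KO sample 2, the sum of the libraries with many detected genes: without it, and with the lone sample left assumed to vary like cNK, Ccl3 differed by 1.30, Ccl4 by 2.02, Xcl1 by 2.06 and Ccl1 by 3.06 on the log2 scale. Without LrNK WT sample 2, Ccl4 in WT differed by 2.13 and Xcl1 by 2.70.

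**Figure D2:**
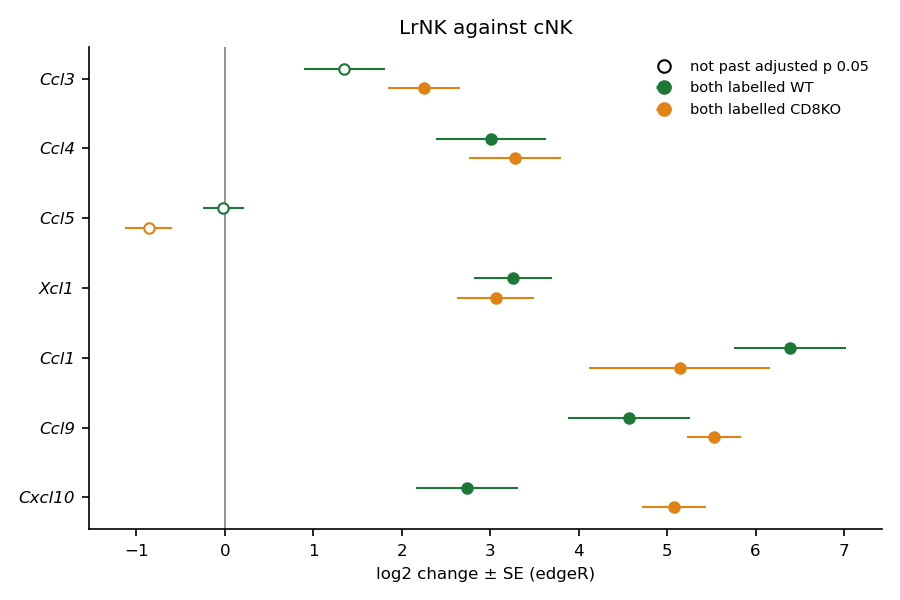
Log2 difference of LrNK from cNK for each chemokine with its standard error, in WT samples and in samples labelled CD8KO. Filled points passed an adjusted p of 0.05 by edgeR; Ccl5 is the gene whose points lie at or below 0, at -0.02 and -0.86.

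Ccl3 and Ccl4, neighbours on chromosome 11 that are often induced together, changed places between the cell types. This ratio was examined after the values had been seen. Per kilobase of exon, the level of Ccl4 relative to Ccl3 was 1.31, 2, 1.58 and 2.03 in LrNK WT libraries 1 to 4 and 1.12, 1.47 and 1.51 in LrNK CD8KO libraries 1 to 3. It was 0.588, 0.552 and 0.558 in cNK WT and 0.647, 0.706 and 0.684 in cNK CD8KO. Ccl4 was thus the more abundant in all 7 LrNK libraries and Ccl3 in all 6 cNK libraries. The mean log2 ratios differed by 1.25 between the 5 LrNK and 6 cNK samples, with both labels pooled (exact permutation test, two-sided, p = 0.00433 over 462 arrangements). That p is the smallest that 5 against 6 allows when the one-sided p is doubled, as was done here. Since the ratio was chosen with the full separation already seen, this p adds no support. Within WT samples the difference was 1.51, and the exact permutation p of 0.1 is the smallest that 3 against 3 allows. Within CD8KO samples it was 0.925, with an exact permutation p of 0.2, the smallest that 2 against 3 allows when the one-sided p is doubled.

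**Figure D3:**
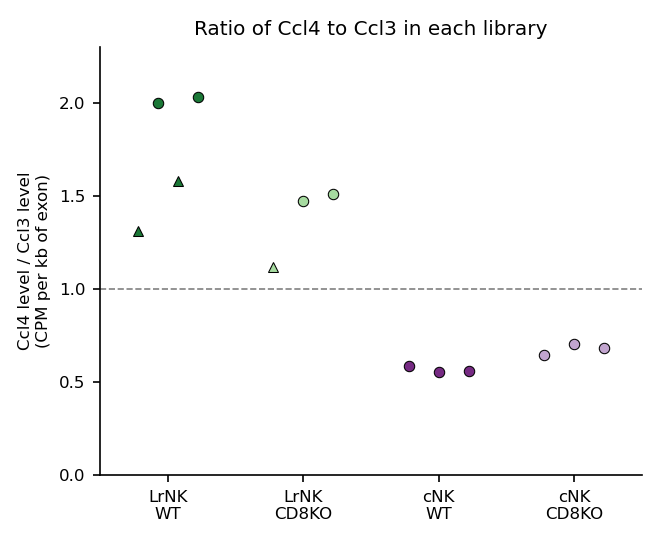
Ratio of the Ccl4 level to the Ccl3 level, both in CPM per kilobase of exon, in each library of the 4 groups, with a dashed line at 1. Circles are libraries with many detected genes and triangles those with few; LrNK libraries run from 1.12 to 2.03 and cNK libraries from 0.552 to 0.706.

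Receptors of the 7 chemokines differed by type of receptor. Of 8 listed, 5 were tested between the WT groups and 3 were higher and 1 lower in LrNK. Cxcr3, the receptor of Cxcl10, stood at 223 to 322 CPM in LrNK WT and 83.1 to 92.0 in cNK WT (log2 difference 1.73, edgeR adjusted p = 5.50e-04). Xcr1, the receptor of Xcl1 and a marker of cross-presenting dendritic cells, stood at 4.18 to 8.46 against 0.187 to 0.204 CPM (edgeR adjusted p = 0.0035). Ccr1 was detected in every LrNK library, at 1.64 to 9.26 CPM in WT, and had no count in any cNK library. Ccr3 went the other way, with no count in LrNK WT and 6.61 to 11.6 CPM in cNK WT. Ccr8, the receptor of Ccl1, did not exceed 0.067 CPM in cNK and reached 6.13 CPM in LrNK CD8KO.

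Among 31 other chemokine genes, 13 were tested between the WT groups, of which 9 were higher in LrNK and none lower. In the samples labelled CD8KO, 15 of 18 tested were higher and none lower. Cxcl2 and Ccl2, which recruit neutrophils and monocytes, and Ccl22 had the largest fitted differences in WT. Cxcl2 stood at 21.9 to 228 CPM in LrNK WT, Ccl2 at 9.06 to 17.1 and Ccl22 at 1.21 to 8.34, and all 3 had no count in any cNK WT library. In a cNK library a count of 0 allows up to 0.0413 to 0.0617 CPM (3 counts of the total), which covers counting error only. Cytokines that NK cells release with chemokines were higher as well, in 4 of the 7 tested in WT: Csf1 at 31.8 to 40.2 against 1.27 to 1.85 CPM, Tnf at 33.4 to 185 against 5.59 to 6.30, and Csf2 at 5.87 to 14 against 0.921 to 1.94 were the largest. Ifng, the fourth, stood at 159 to 565 against 115 to 124 CPM.

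Most early-response genes were higher in LrNK, as were Ccl4 and Xcl1 among the abundant chemokines. Of 25 immediate-early and NF-kB feedback genes, 17 were higher and 1 lower in LrNK WT than in cNK WT, and 19 were higher and none lower in the samples labelled CD8KO. Atf3 at 87.6 to 544 against 0.976 to 1.88 CPM, Ier3 at 16.0 to 66.9 against 0.612 to 1.64 and Dusp1 at 1097 to 5204 against 104 to 142 differed most in WT, and Nfkb1 was the gene that was lower, at 226 to 303 against 369 to 381. The summed CPM of the 25 was 12030, 46120, 26900 and 45020 in LrNK WT libraries 1 to 4, 15190, 42770 and 42790 in LrNK CD8KO libraries 1 to 3, and 3858 to 4528 over the 6 cNK libraries. Within LrNK WT, the libraries stood in the same order for this sum as for Ccl3, Ccl4 and Xcl1 apart from libraries 2 and 4, which were counted as 1 sample. The part of these genes in the chemokine differences was not tested.

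Markers of other cells differed between LrNK and cNK libraries, and not all in 1 direction. The 15 neutrophil and monocyte markers, 10 to 15 of them above 0 in an LrNK library, summed to 2770, 831, 4760 and 820 CPM in LrNK WT libraries 1 to 4 and to 10130, 3055 and 3108 in LrNK CD8KO libraries 1 to 3. In cNK libraries they summed to 1186 to 1341 CPM, above LrNK WT libraries 2 and 4 and below all other LrNK libraries. Lyz2, the myeloid lysozyme, made up most of the LrNK sum at 520 to 3532 CPM in WT and 1942 to 7411 in CD8KO, against 12 to 18.9 in cNK. The cNK sum held Itgam, also listed as a conventional marker, at 197 to 229 CPM against 14.1 to 84 in LrNK. Between the WT groups Itgam and Ly6c2 were lower in LrNK, at -3.03 and -1.73 on the log2 scale. Lyz2, Csf3r, Cd14, Fcgr1 and Csf1r were higher, at 7.11, 5.85, 3.64, 3.63 and 2.22, and Ccr2 and Cebpe did not pass (edgeR). Ly6g, a defining marker of neutrophils, was at 0 in all LrNK WT libraries and at most 0.144 CPM in LrNK CD8KO. Clec4f, the marker of Kupffer cells, stood at 2.26 to 21.0 CPM in LrNK libraries and at 0 in all cNK libraries. Of the 11 Kupffer-cell markers tested between the WT groups, 3 were higher in LrNK, Clec4f and Cd68 among them, and none was lower (edgeR), while Marco at -4.32, Cd5l at -1.62 and Cd163 at -1.23 on the log2 scale did not pass (edgeR adjusted p = 0.112, 0.112 and 0.374). The 12 Kupffer-cell markers listed summed to 477, 182, 505 and 177 CPM in LrNK WT libraries 1 to 4, 496 to 888 in LrNK CD8KO and 196 to 298 in cNK. Mast-cell and basophil markers summed lower in all LrNK libraries, at 21.6 to 47.0 against 75.3 to 87.5 CPM. Most of that sum was Kit, at 18.7 to 45.4 against 73.3 to 85.6 CPM, and Cpa3 overlapped. Mcpt8 was at 0 in some LrNK libraries and reached 3 CPM in others, against at most 0.0291 in cNK. Endothelial sums overlapped, at 99.4 to 162 against 98.0 to 112 CPM. Pecam1 was their largest part, at 72.1 to 98.3 against 93.4 to 103 CPM. Eng stood at 12.9 to 31.4 against 0.37 to 1.04 CPM. Eng and Lyve1 passed as higher in LrNK WT, and Kdr, Pecam1 and Stab2 did not pass (edgeR). Dendritic-cell markers summed to 1479 to 3452 CPM in LrNK and 766 to 875 in cNK, and the 10 hepatocyte markers to 30.4 to 64.2 and 1.34 to 2.19. Itgax made up most of the dendritic-cell sum in cNK, at 741 to 848 CPM, and stood at 554 to 1080 in LrNK. H2-Ab1 made up most of the excess of that sum in LrNK, at 502 to 2396 against 13.5 to 23.3 CPM. Batf3, Ccr7, Cd209a, Clec9a, Flt3, H2-Ab1 and Xcr1 passed as higher in LrNK WT (edgeR). Itgax, Siglech and Zbtb46 did not pass, and Zbtb46 stood at 3.64 to 9.05 against 6.76 to 9.33 CPM. T-cell markers summed to 820 to 1698 CPM in LrNK and 418 to 577 in cNK. Within LrNK WT, Ccl9 and Cxcl10 were highest in library 3, which had the largest neutrophil and monocyte sum, and lowest in libraries 2 and 4, which had the smallest. The part of such cells in these 2 chemokines was not tested.

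**Figure D4:**
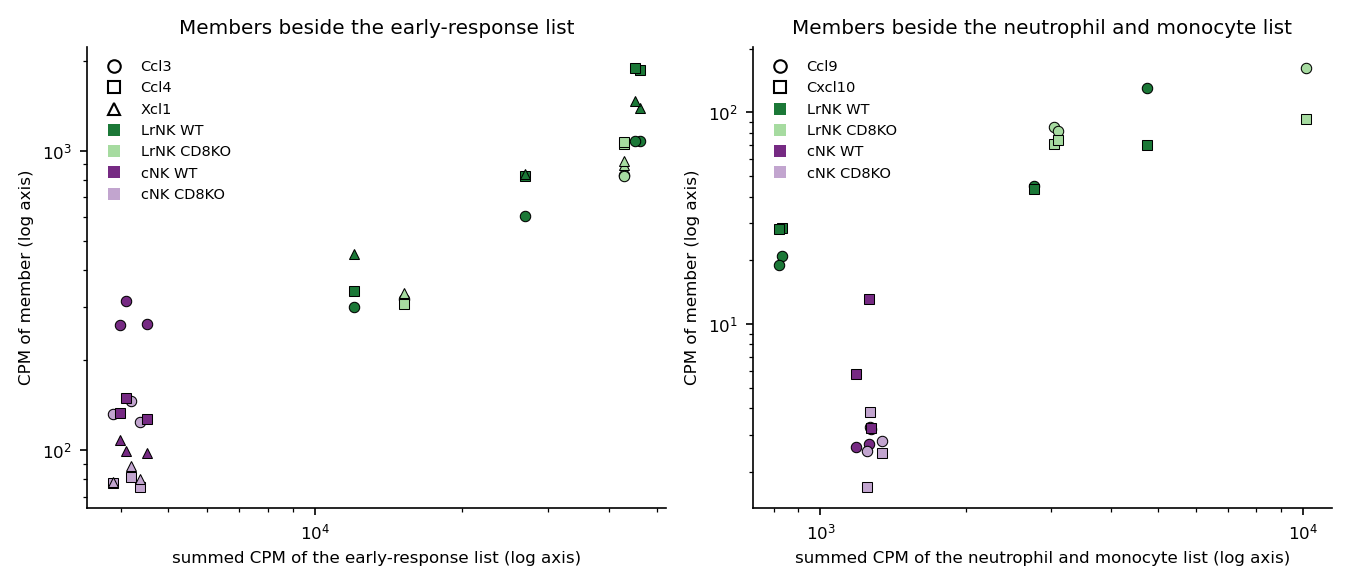
CPM of chemokine transcripts against summed CPM of a gene list in every library, all axes log. On the left Ccl3, Ccl4 and Xcl1 stand against the early-response list, which spans 12030 to 46120 CPM in LrNK and 3858 to 4528 in cNK; on the right Ccl9 and Cxcl10 stand against the neutrophil and monocyte list, which spans 820 to 10130 CPM in LrNK.

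Which chemokines differed by genotype label in conventional NK cells? In cNK labelled CD8KO, 3 chemokine genes of the 6 tested were lower than in cNK WT and none was higher (edgeR's quasi-likelihood test), where 0.812% of the 16619 genes tested were called lower and 0.499% higher. The median log2 difference of the 6 was -0.56, against 0.00 over all genes tested. When the spread of LrNK samples was let into the fit by modelling all 4 groups together, none of the 3 passed (edgeR adjusted p = 1 for each), where 0.00518% of 19287 genes were called higher and 0% lower. Unadjusted, 4 of the 6 were under 0.05 in the fit of cNK alone, as were 2140 of the 16619 genes tested (edgeR). The biological coefficient of variation was 9.6% in the fit of cNK alone and 63.2% in the fit of all 4 groups.

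Ccl3 measured 146, 124 and 132 CPM in cNK CD8KO libraries 1 to 3 against 262, 316 and 265 in cNK WT. The ranges were well apart, and the log2 difference was -1.07 ± 0.08 (SE; edgeR adjusted p = 2.46e-06). Ccl4 measured 81.6, 75.2 and 78.0 CPM against 133, 150 and 127. It too was separate in all samples, with a log2 difference of -0.81 ± 0.07 (SE; edgeR adjusted p = 1.09e-05). Xcl1 measured 88.9, 80.4 and 78.5 CPM against 108, 99.4 and 98.0, with a log2 difference of -0.31 ± 0.06 (SE; edgeR adjusted p = 0.0245). Its ranges did not overlap, but the gap was small and the call was lost without cNK WT sample 1, cNK CD8KO sample 2 or cNK CD8KO sample 3 (edgeR adjusted p = 0.164, 0.177 and 0.0773). Gm20743 stood at 21.1 to 23.2 CPM in cNK CD8KO and 44.1 to 51.9 in cNK WT.

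Ccl5 measured 2585, 2602 and 2490 CPM in cNK CD8KO against 2399, 2741 and 2397 in cNK WT, ranges that overlapped (log2 difference 0.02 ± 0.05, SE; edgeR adjusted p = 0.931). Ccl9 was low under both, at 3.27, 2.51 and 2.81 against 2.72, 2.63 and 3.20 CPM (log2 difference 0.00 ± 0.18, SE; edgeR adjusted p = 0.996). Cxcl10 measured 3.83, 1.69 and 2.46 CPM against 13.1, 5.79 and 3.21, and its highest CD8KO library was above its lowest WT library. The log2 difference of -1.49 ± 0.39 (SE) did not pass (edgeR adjusted p = 0.0858). It passed without cNK WT sample 2, cNK WT sample 3 or cNK CD8KO sample 1 (edgeR adjusted p = 0.0428, 0.00774 and 0.0455). Ccl1 was below the filter on low counts, with 18 counts in cNK CD8KO and 16 in cNK WT.

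Other genes of this group fell in the same cNK samples. Ifng, a cytokine that NK cells release with Ccl3 and Ccl4, fell from 115 to 124 CPM in WT to 84.1 to 93.4 in CD8KO (log2 difference -0.42, edgeR adjusted p = 0.00111), as 1 of 6 co-produced cytokines tested. Of the 25 early-response genes 4 passed as lower and none as higher. Of those that passed, Nr4a2 at -0.65, Nr4a1 at -0.54 and Dusp2 at -0.49 on the log2 scale were the largest (edgeR adjusted p = 0.00327, 5.33e-04 and 0.00195). Fosb, which rose by 1.2, and Atf3, at -1.195, moved further but did not pass (edgeR adjusted p = 0.0612 and 0.136). The sum of the 25 did not separate the labels, at 3858 to 4378 CPM in CD8KO and 3995 to 4528 in WT. Of the 15 interferon-induced genes none passed (edgeR), and of 7 other chemokines tested none passed. Cxcr3 rose from 83.1 to 92.0 CPM to 103 to 112 (log2 difference 0.28, edgeR adjusted p = 0.0187). T-cell markers summed to 554 to 577 CPM in cNK CD8KO and 418 to 464 in cNK WT, where Cd8a itself, Cd3d and Cd3g rose. Most of the rise in this sum was Cd8a, at 85.9 to 109 against 0.561 to 0.578 CPM. B-cell markers summed to 224 to 240 CPM in cNK CD8KO and 177 to 193 in cNK WT, with no overlap, and of the 12 only Ighm, the mu heavy chain, passed (log2 difference 0.31, edgeR adjusted p = 0.00264). Neutrophil and monocyte markers summed to 1249 to 1341 CPM against 1186 to 1272. The part of these transcripts in the chemokine differences was not tested.

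No chemokine passed by genotype label in liver-resident NK cells. None of the 7 was called by edgeR, where 0% of the 16504 genes tested were called in either direction and 615 had an unadjusted p under 0.05. Without adjustment none of the 7 was under 0.05 by edgeR, 1 was by DESeq2 and 3 were by voom, and after adjustment neither called a member. DESeq2 called 0.238% of genes higher and 0.122% lower, and voom called 0%. The biological coefficient of variation of this fit was 98.2%. The median log2 difference of the 7 was -0.52, against 0.02 over all genes tested.

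For Ccl5 all LrNK samples labelled CD8KO were below all LrNK WT samples: 946, 1592 and 1636 CPM against 1780, 2948, 2223 and 3014. The log2 difference was -0.85 ± 0.39 (SE; edgeR adjusted p = 1). For Cxcl10 all CD8KO samples were above all WT samples: 92.9, 71.0 and 73.6 CPM against 43.3, 28.5, 70.2 and 28.0. The log2 difference was 0.83 ± 0.36 (SE; edgeR adjusted p = 1). The nearest libraries of the 2 labels stood at 71.0 and 70.2 CPM. With 2 against 3 samples there are only 10 arrangements, so full separation arises easily without a difference. The share of all genes that separate in this way was not counted. The ranges of the other 5 chemokines overlapped. Their log2 differences were -0.19 ± 0.64 for Ccl3, -0.56 ± 0.82 for Ccl4, -0.52 ± 0.63 for Xcl1, -0.92 ± 0.96 for Ccl1 and 0.94 ± 0.69 for Ccl9 (SE; edgeR adjusted p = 1 for each). Without LrNK WT sample 2 the values of Ccl3, Ccl4 and Xcl1 turned to 0.43, 0.33 and 0.04, and without LrNK CD8KO sample 1 to 0.38, 0.11 and 0.06.

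Since detected genes split the LrNK libraries into 2 sets, few and many, levels were also set side by side within each set, with no test, since a set held only 1 or 2 samples a label. Ccl5 in CD8KO was 0.473 times its WT level in the set with few genes and 0.542 times in the set with many. Ccl4 was 0.529 and 0.568 times, Xcl1 0.519 and 0.640 times, and Ccl3 0.706 and 0.768 times its WT level. Cxcl10 was 1.64 and 2.55 times, and Ccl9 1.85 and 4.17 times its WT level. Ccl1 was 0.120 times in the first set and 1.04 times in the second. All genes but Ccl1 thus kept 1 direction in both sets.

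The set itself went with larger differences than the label for several genes. In the samples with many detected genes, Ccl4 was 3.22 times its level in those with few in WT and 3.45 times in CD8KO. Ccl3 was 2.38 and 2.59 times, Xcl1 2.21 and 2.72 times, and Ccl5 1.49 and 1.71 times. Ccl9 went the other way, at 0.229 and 0.516 times, as did Cxcl10 at 0.499 and 0.777 times. NK-cell markers summed to 13770 to 16690 CPM in LrNK WT and 7918 to 9791 in LrNK CD8KO, and neutrophil and monocyte markers to 820 to 4760 and 3055 to 10130. Most of the fall in the NK-cell sum was Gzma, at 3043 to 3825 against 909 to 1077 CPM, and Gzmb, at 2793 to 3633 against 955 to 1304. Tbx21 overlapped, and Eomes went the other way, at 0.494 to 4.75 against 6.04 to 10.3 CPM. No gene of this list passed (edgeR). The part of these differences in the chemokine values was not tested.

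**Figure D5:**
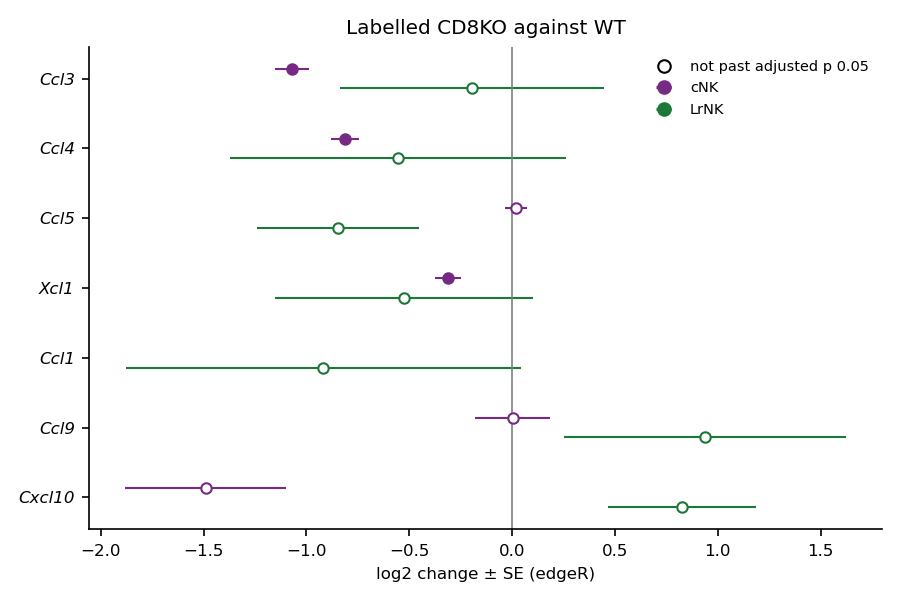
Log2 difference between samples labelled CD8KO and WT for each chemokine with its standard error, in cNK and in LrNK. Filled points passed an adjusted p of 0.05 by edgeR, which were Ccl3, Ccl4 and Xcl1 in cNK; Ccl1 was too low in cNK to be tested.

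Did the difference by label itself differ between the cell types? In the fit of all 4 groups none of the 7 passed for this difference, where 0.00518% of the 19287 genes tested were called higher and 0.0363% lower. Without adjustment 2 of the 7 were under 0.05 by edgeR, as were 1628 of the 19287 genes tested. DESeq2 put 2 of the 7 and voom 3 under 0.05, and neither of the latter called a member after adjustment. DESeq2 called 1.12% of genes higher and 0.698% lower, and voom 0.00518% and 0.0207%. Cxcl10, higher with the label in LrNK and lower in cNK, gave 2.33 ± 0.73 on the log2 scale (SE; edgeR adjusted p = 0.416). Ccl5 gave -0.84 ± 0.36 (SE; edgeR adjusted p = 0.561). Ccl3, which passed in cNK and not in LrNK, gave 0.91 ± 0.65 (SE; edgeR adjusted p = 0.836), and Ccl4 gave 0.29 ± 0.83 (SE; edgeR adjusted p = 1).

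Which other transcripts followed the same pattern over the 11 samples? Among 9404 protein-coding genes that averaged 2 or more in log2 CPM, those with the smallest root mean square difference of centred log2 CPM were taken, as a description. Nearest to Ccl4 was Xcl1 (0.284 log2 units), nearest to Xcl1 were Junb (0.238) and Ppp1r15a (0.258), and nearest to Ccl3 were Ifng (0.313) and Btg2 (0.355). Ccl5 was nearest to S100a13 (0.158) and Smim20 (0.166). Ccl9 was nearest to Ppfia4 (0.298) and Fgd2 (0.317). Cxcl10 had no close match, with Ly6a at 0.489, and neither did Ccl1, with Tesc at 0.697 and Cd3g at 0.718. The points share cell type, organ, library depth and detection set, so the values describe these samples only. Centring was over both cell types, so genes can be near through a like difference between LrNK and cNK alone.

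The 250 bases before the start of 4 genes are shown because these members took different patterns: Cxcl10 and Ccl1 were low in cNK, while Ccl3 and Xcl1 were abundant in both cell types. They are RefSeq promoters on GRCm38.p6, all on the minus strand, at chr5:92348890-92349139 for Cxcl10, chr11:82179813-82180062 for Ccl1, chr11:83649379-83649628 for Ccl3 and chr1:164935523-164935772 for Xcl1. Capitals mark matches to 3 motifs searched on both strands, chosen with the data known: for NF-kB GGGA, any 4 bases and CC, for interferon response elements GAAA, any 2 bases and GAAA, and for AP-1 TGANTCA.
Cxcl10: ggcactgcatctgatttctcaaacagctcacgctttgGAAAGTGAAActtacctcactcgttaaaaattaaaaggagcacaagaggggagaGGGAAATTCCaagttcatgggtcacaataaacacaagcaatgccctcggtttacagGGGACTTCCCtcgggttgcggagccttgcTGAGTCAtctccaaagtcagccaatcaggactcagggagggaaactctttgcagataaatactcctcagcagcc
Ccl1: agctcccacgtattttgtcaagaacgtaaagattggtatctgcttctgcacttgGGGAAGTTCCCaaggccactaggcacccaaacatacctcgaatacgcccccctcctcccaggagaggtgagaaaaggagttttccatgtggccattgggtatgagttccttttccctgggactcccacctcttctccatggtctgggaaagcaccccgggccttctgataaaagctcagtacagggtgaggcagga
Ccl3: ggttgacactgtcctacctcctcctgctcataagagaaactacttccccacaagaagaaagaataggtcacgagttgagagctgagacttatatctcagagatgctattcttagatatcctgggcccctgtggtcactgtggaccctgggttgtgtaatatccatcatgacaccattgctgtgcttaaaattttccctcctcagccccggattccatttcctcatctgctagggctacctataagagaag
Xcl1: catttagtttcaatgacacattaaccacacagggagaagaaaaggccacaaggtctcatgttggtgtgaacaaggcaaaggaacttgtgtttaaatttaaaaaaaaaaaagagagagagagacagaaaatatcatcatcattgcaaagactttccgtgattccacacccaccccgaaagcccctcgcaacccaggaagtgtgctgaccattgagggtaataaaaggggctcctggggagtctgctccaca

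Of 5 members with an entry in the promoter table, Cxcl10 held all 3 motifs: the interferon motif from -213 to -204 counted from the start, NF-kB motifs from -159 and -103, and an AP-1 motif from -74. Ccl1 held NF-kB matches from -196 and -195 that overlap on opposite strands, and Ccl9 an AP-1 match from -53. No match was found in these windows of Ccl3 and Xcl1. Over 32851 windows of the same length, 17.6% held the NF-kB letters, 2.98% the interferon letters and 6.75% the AP-1 letters. A match describes letters and not a bound site. Of the 15 interferon-induced genes, 6 were higher in LrNK WT than in cNK WT and none lower, with Isg15 at 40.3 to 70.8 against 10.0 to 19.0 CPM, Gbp2 at 67.6 to 240 against 46.1 to 55.6 and Rsad2 at 8.14 to 22.1 against 4.17 to 7.47 as the largest. In the samples labelled CD8KO 11 were higher and none lower.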

How the data were processed

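Gene counts as deposited, 1 file per library and 13 files, each with 54532 identifiers, were the input; per the submitters' processing notes, reads were aligned with HISAT2 2.1.0 to GRCm38. Which tool counted reads, with which annotation release and strand setting, is not given in the sources used here. Per the labels' protocols, cells were sorted, RNA was extracted with Trizol and libraries were made with an Illumina TruSeq RNA kit. Even numbers made up 49.5% to 65.2% of counts from 1 to 20, which was left as it is.

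Identifiers were matched to GENCODE M21 (54495 of 54532). CPM is a gene's count per 1e6 counts of its library. Libraries of a group whose chi-square per degree of freedom was under 4 and 3 times below any other pair were summed. Genes were tested with edgeR 4.0.16 (R 4.3.3; filterByExpr minimum count 10 and total 15, TMM, quasi-likelihood test) on the 2 groups compared, or on all 4 for the difference between cell types, and called at a Benjamini-Hochberg adjusted p under 0.05. DESeq2 1.42.0 and voom (limma 3.58.1) were alternatives, with other scaling, no filter, a replicate block, unsummed libraries, subsets by detected genes (under 16000 is few) and each sample left out. The code was tested on simulated data.

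The members, gene lists and tests were chosen with earlier results of these data known. All 7 members were described. Of other listed genes, at most 3 per list and direction with the largest log2 change were named, plus any receptor and markers. Some genes that these rules name are not reported here. Ratios of Ccl4 to Ccl3, motifs and a subset of libraries with few genes were chosen after the values were seen. RefSeq promoters on GRCm38.p6 were matched by symbol for 5 members.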

Additional observations from a re-analysis of the deposited data

How the results depend on the processing

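With all 4 groups in 1 fit, 0 members were called in cNK by label. Leaving out 1 sample at a time left 2 to 4 members called there, 3 to 6 between the WT cell types, 3 to 7 between those labelled CD8KO, and 0 for LrNK by label and for the difference. For that difference, LrNK samples with many detected genes alone gave 4 members (Ccl3, Ccl5, Ccl9, Cxcl10) and those with few alone gave 1 (Ccl5), with a lone sample per group assumed to vary like cNK. Over all genes, higher and lower calls for LrNK by label were 0 and 0, but 104 and 34 in the 4-group fit, 39 and 20 by DESeq2, 240 and 19 without a filter, 168 and 12 with the replicate block and 14 and 8 with libraries unsummed. For cNK by label they were 83 and 135, but 1 and 0 in the 4-group fit, 229 and 285 by DESeq2, 248 and 342 without a filter and 142 and 213 with the block. Between WT cell types they were 1797 and 1617, but 1016 and 785 with the block, 5553 and 5973 with many detected genes only and 2571 and 4285 with few only. Between those labelled CD8KO they were 2735 and 2069, but 1371 and 791, 5742 and 5130, and 5368 and 7636 under the same settings. For the difference they were 1 and 7, but 208 and 129 by DESeq2, 1 and 4 by voom, 40 and 28 unsummed, 1904 and 962 with many only and 1272 and 696 with few only. Total leave-one-out counts ran from 71 to 254 for cNK by label, 1021 to 6856 between WT cell types, 1688 to 13004 between those labelled CD8KO, and 5 to 645 for the difference.

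The direction of small differences was not stable. Leaving out 1 sample, LrNK by label ran from -1.14 to 0.43 on the log2 scale for Ccl3, -1.82 to 0.33 for Ccl4 and -1.53 to 0.0629 for Xcl1. cNK by label ran from -0.0232 to 0.10 for Ccl5 and -0.11 to 0.0913 for Ccl9. LrNK WT against cNK WT ran from -0.29 to 0.14 for Ccl5. The difference ran from -0.0504 to 1.53 for Ccl3, -0.99 to 1.17 for Ccl4 and -1.20 to 0.37 for Xcl1. Ccl9 in cNK by label was -0.00207 by voom. Ccl5 between WT cell types was 0.0679 with every library separate and 0.35 with many detected genes only. The difference for Ccl4 was -0.0707 with few detected genes only. The cause of these changes was not tested.

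Replicate numbers were shared between groups, but the labels give no shared source. Correlations of deviations between same-numbered samples were 0.0144 to 0.0478 in cNK and -0.1 to 0.0546 between cell types. In LrNK by label they were 0.299 for number 1 and 0.491 for number 2, over 2 pairs only, where under both labels sample 1 holds few and sample 2 many detected genes. The numbers were not taken as pairs. With the replicate block 1 member (Ccl9) was called in LrNK by label, 4 in cNK by label (Cxcl10 added), 5 and 5 between cell types (Ccl1 lost in CD8KO) and 0 for the difference, and Ccl9 in cNK by label was -0.000807. Depth limits Ccl1 in cNK, at 4 to 10 counts a library.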

Other observations

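Of 31 other chemokine genes, 6 had no count in any LrNK library (Ccl11, Ccl19, Ccl20, Ccl21a, Cxcl15 and Cxcl17) and 15 had none in any cNK library. The following were named after their values were seen. Ccl6, another CC chemokine, stood at 26.7 to 141 CPM in LrNK WT, 94.1 to 268 in LrNK CD8KO and 1.53 to 2.38 over cNK libraries, and its lowest LrNK WT values were in libraries 2 and 4, as for Ccl9. Cxcl9, another Cxcr3 ligand, stood at 12.1 to 124 CPM in LrNK WT, 47.2 to 87.9 in LrNK CD8KO and 0.853 to 2.22 over cNK libraries. Cxcl2 reached 358 CPM in LrNK CD8KO, while no cNK library held a count of it.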
